A study of Arabidopsis thaliana with 6 samples.

Results

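Terpene volatile genes were examined as a set of 7 loci of Arabidopsis thaliana: the terpene synthases TPS03, TPS04, TPS10, TPS11, TPS14 and TPS21, and the cytochrome P450 CYP82G1. The members were taken by locus identifier from a table of read counts per gene, and 4 of the 7 (TPS03, TPS04, TPS14 and CYP82G1) had a row among the 26800 identifiers used. TPS10, TPS11 and TPS21 had no row and were not analysed here beyond their sequence and neighbours. The genes were proposed from the counts compared below, so their values are given as a description and without a test. RNA came from whole seedlings aged 12 days, grown on agar medium with sucrose. The 3 libraries of the mutant are labelled vih1vih2, for a plant mutated in both VIH1 and VIH2, kinases that form InsP8, an inositol pyrophosphate, and the 3 control libraries are labelled WT (the accession Col-0). The labels do not name the mutant alleles.

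Terpene synthases convert prenyl diphosphates into volatile mono-, sesqui- and diterpenes. In Arabidopsis leaves, TPS04 makes the diterpene alcohol geranyllinalool, which CYP82G1 cleaves to the homoterpene TMTT; herbivory, elicitors and jasmonate are known to switch this route on. TPS03 makes farnesene and ocimene, TPS10 and TPS14 make linalool, and TPS11 and TPS21 make the sesquiterpenes of the flower.

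Total counts per library were 47894376 to 52902600 in the libraries labelled vih1vih2 and 42697387 to 64410871 in those labelled Col-0, so that 1 count was worth 0.0155 to 0.0234 CPM (counts scaled to a common library size). The targeted genes went against the labels. VIH2 had 33783, 35310 and 38660 counts in the libraries labelled vih1vih2, against 2759, 2783 and 2310 in those labelled Col-0. VIH1 had 1737, 1524 and 1820 counts in the libraries labelled vih1vih2, against 325, 361 and 246 in those labelled Col-0. A count over the whole gene cannot tell an intact transcript from a disrupted one, and every direction below rests on these labels. Whether replicates were separate cultures is not stated in the labels, and each p-value thus measures library-to-library spread, which may be technical.

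The 250 bases before the annotated start of each of the 4 counted genes, from the RefSeq annotation of TAIR10.1, are shown 5′ to 3′ because 3 of these genes were high in the same libraries. Capitals mark matches to CACATG, a sequence bound by MYC-type factors, and to GNATATNC, the P1BS element of phosphate starvation genes. TPS04 lies on the plus strand, with its window at chr1:22523385-22523634.
TPS04: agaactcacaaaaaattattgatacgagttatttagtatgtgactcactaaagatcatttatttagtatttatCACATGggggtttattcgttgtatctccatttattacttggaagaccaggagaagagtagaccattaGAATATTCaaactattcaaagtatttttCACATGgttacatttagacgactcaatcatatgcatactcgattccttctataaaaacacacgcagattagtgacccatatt
CYP82G1 lies on the minus strand, with its window at chr3:9169302-9169551.
CYP82G1: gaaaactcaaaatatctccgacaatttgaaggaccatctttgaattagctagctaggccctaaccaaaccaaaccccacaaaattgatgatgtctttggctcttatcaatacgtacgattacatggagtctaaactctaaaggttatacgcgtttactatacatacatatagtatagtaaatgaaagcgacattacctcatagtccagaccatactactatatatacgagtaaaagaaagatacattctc
TPS03 lies on the plus strand, with its window at chr4:9407361-9407610.
TPS03: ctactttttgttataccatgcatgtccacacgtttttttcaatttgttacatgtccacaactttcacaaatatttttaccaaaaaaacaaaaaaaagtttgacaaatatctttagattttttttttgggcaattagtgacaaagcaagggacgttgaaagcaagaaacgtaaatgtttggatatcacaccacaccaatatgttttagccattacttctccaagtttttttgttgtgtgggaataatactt
TPS14 lies on the minus strand, with its window at chr1:22774721-22774970.
TPS14: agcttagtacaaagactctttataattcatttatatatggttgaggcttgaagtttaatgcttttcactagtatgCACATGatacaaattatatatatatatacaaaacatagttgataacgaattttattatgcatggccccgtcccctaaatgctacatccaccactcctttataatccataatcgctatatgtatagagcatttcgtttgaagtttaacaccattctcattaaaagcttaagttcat
The TPS04 window held CACATG at 177 and 82 bases before the gene start and a P1BS match at 110 bases. TPS14 held 1 CACATG, at 175 bases. The windows of TPS03 and CYP82G1 held neither sequence. Searched on both strands, CACATG was found in 11.1% and P1BS in 5.5% of 27443 promoter windows of this length. The G-box CACGTG (6.5% of windows), the W-box TTGACC (12.2%) and the GCC box GCCGCC (1.9%) had no match in the 250-base window of any of the 7 members. Over 1000 bases, TPS03 held 4 matches to CACATG, at 688, 533, 531 and 437 bases, and CYP82G1 held 2, at 585 and 351 bases. The matches at 533 and 531 bases overlap, on opposite strands. TPS04 and TPS10 held 2 each, TPS14 and TPS21 1 each, and TPS11 0. TPS14, not high in the libraries labelled vih1vih2, thus held it too, while TPS10 and TPS21 have no counts to compare. At that length 37.7% of all promoters held CACATG and 14.8% held the G-box, which none of the 7 members did. A match describes the letters of a window and is not a measured binding site.

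In the libraries labelled vih1vih2, TPS04, CYP82G1 and TPS03 were counted at 9.18 to 19.5 CPM, and in those labelled Col-0 at 0 to 0.196 CPM. TPS14 was low in every library and its groups overlapped. In bulk RNA of whole seedlings, fewer cells of a type and less RNA per cell cannot be told apart. The groups did not overlap for 3 of the 4 members with a row, all higher in the libraries labelled vih1vih2, beside 28.9% of the 22818 genes tested. The members were chosen on this contrast, so nothing is read from that count. CPM values below are scaled by TMM, which corrects library sizes for composition, and each mean ± SD is over n = 3 libraries.

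**Figure D1:**
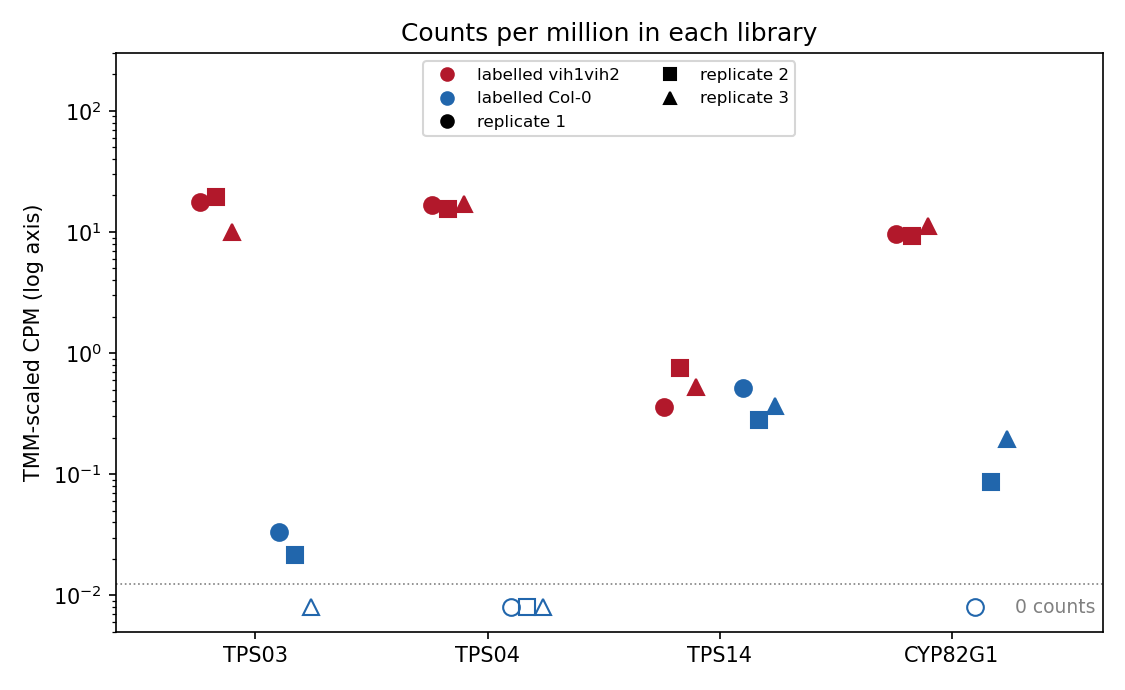
TMM-scaled CPM (log axis) of TPS03, TPS04, TPS14 and CYP82G1 in each of the 6 libraries, with those labelled vih1vih2 in red and those labelled Col-0 in blue, and marker shapes for replicates. Open symbols under the dotted line are libraries with 0 counts. TPS03, TPS04 and CYP82G1 sit between 9.18 and 19.5 CPM in the libraries labelled vih1vih2 and at or below 0.196 CPM in those labelled Col-0, while the groups of TPS14 overlap.

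TPS04 (AT1G61120, chromosome 1, 22523635 to 22528836, 12 exons, a protein of 877 residues) is the geranyllinalool synthase that starts the TMTT route. It had 930, 782 and 909 counts in the libraries labelled vih1vih2, against 0, 0 and 0 in those labelled Col-0. The 3 libraries labelled vih1vih2 lay close together, at 16.7, 15.4 and 17.0 CPM, a mean of 16.4 ± 0.867 CPM. A count of 0 over the libraries labelled Col-0 allows up to 0.0203 CPM, taking 3 counts over the group as the limit. Against that floor TPS04 was at least 808-fold higher in the libraries labelled vih1vih2. The bound was 477-fold without the library labelled Col-0 1, since fewer counts then stood behind the 0, and 554-fold to 831-fold without any other single library. TPS04 was 1 of 12 tested genes with at least 5 CPM in the libraries labelled vih1vih2 and no count in those labelled Col-0, and 1 gene showed the opposite pattern. In 311 tested genes 1 library was lower than each of the other libraries of its group by 16-fold or more. Whether counts were lost in the same way from a whole group was not tested, and the bound holds only if none were.

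CYP82G1 (AT3G25180, chromosome 3, 9167138 to 9169301, 2 exons, a protein of 515 residues) is the P450 that forms TMTT from geranyllinalool. It had 530, 466 and 592 counts in the libraries labelled vih1vih2, against 0, 4 and 8 in those labelled Col-0. All libraries labelled vih1vih2 were far above all of those labelled Col-0, where the gene was at the edge of detection. The means were 9.94 ± 1.02 CPM in the libraries labelled vih1vih2 and 0.0940 ± 0.0983 CPM in those labelled Col-0. The ratio of pooled counts was 122, with a 95% interval of 69.9 to 237 from an exact (Clopper-Pearson) binomial limit, which covers counting error only. The fitted log2 fold change was 6.82 ± 0.81 (standard error). The libraries labelled Col-0 set this size: the ratio was 72.3 without Col-0 1, 266 without Col-0 3, and 115 to 127 without any other single library.

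TPS03 (AT4G16740, chromosome 4, 9407611 to 9411140, 5 exons, a protein of 565 residues) is annotated as the farnesene synthase of the Col accession, which also makes ocimene in vitro. It had 977, 992 and 531 counts in the libraries labelled vih1vih2, against 2, 1 and 0 in those labelled Col-0. The third library labelled vih1vih2 held the lowest of its group, yet it remained far above every library labelled Col-0. The means were 15.7 ± 5.06 CPM in the libraries labelled vih1vih2 and 0.0182 ± 0.0168 CPM in those labelled Col-0. The pooled ratio was 771, and since it rests on 3 counts in the libraries labelled Col-0 its 95% counting interval ran from 263 to 3740. The fitted log2 fold change was 9.44 ± 0.59. Without Col-0 1 the ratio was 1366 (95% counting interval 245 to 53972), resting on 1 count, and without any other single library it was 558 to 912.

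TPS14 (AT1G61680, chromosome 1, 22772315 to 22774720, 7 exons, a protein of 569 residues) is a linalool synthase. It had 20, 38 and 28 counts in the libraries labelled vih1vih2, against 31, 13 and 15 in those labelled Col-0. The highest library labelled Col-0 lay above the lowest labelled vih1vih2, and no library reached 1 CPM. The means were 0.544 ± 0.195 CPM in the libraries labelled vih1vih2 and 0.387 ± 0.118 CPM in those labelled Col-0. The pooled ratio was 1.35, with a 95% counting interval of 0.957 to 1.91, and the fitted log2 fold change was 0.48 ± 0.40. Leaving out 1 library moved that value between 0.18 and 0.75. TPS14 overlaps AT1G61670 on the opposite strand by 112 bases, and AT1G61670 had 1716, 1702 and 1842 counts in the libraries labelled vih1vih2, against 2127, 1212 and 1381 in those labelled Col-0. The strand setting of the counting is not given in the sources used here, so reads of the overlap cannot be told apart between these 2 genes.

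Sequence shared with other genes could split reads between them. Of the 50-base stretches of their transcripts, 0 of 2877 in TPS04, 0 of 1942 in CYP82G1 and 0 of 2424 in TPS03 occurred in a transcript of another gene, against 63 of 1813 (3.47%) in TPS14, all in AT1G61670. Apart from TPS03 and TPS10, the terpene synthases among the members were distant from one another as proteins. Identity over aligned residues was 24.7% to 55.3% between pairs of the 6, highest between TPS03 and TPS10, and 30.2% between TPS03 and TPS04, which were both counted in the libraries labelled vih1vih2.

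Levels of different genes were compared as TMM-scaled CPM per kilobase of the longest annotated transcript. In the libraries labelled vih1vih2 the order was TPS03 at 6.34 ± 2.05, TPS04 at 5.60 ± 0.297, CYP82G1 at 4.99 ± 0.512 and TPS14 at 0.292 ± 0.105 CPM per kilobase. TPS03 and TPS04, and TPS04 and CYP82G1, differed by less than the sum of their SDs, so only TPS14 stood apart. Per kilobase of coding sequence, CYP82G1 at 6.42 ± 0.659 came before TPS04 at 6.22 ± 0.329. In the libraries labelled Col-0 the order was TPS14 at 0.208 ± 0.0632, CYP82G1 at 0.0472 ± 0.0494, TPS03 at 0.00736 ± 0.00679 and TPS04 at 0 CPM per kilobase. The level of TPS03 exceeded that of 43.0% of 22676 genes in the libraries labelled vih1vih2 and of 0.754% in those labelled Col-0. TPS04 exceeded 39.5% and CYP82G1 36.6% of genes in the libraries labelled vih1vih2, so these were levels below the middle of the transcriptome.

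The 3 members that were high in the libraries labelled vih1vih2 varied differently among those libraries. TPS04 over CYP82G1, the consecutive steps of the TMTT route, was 1.19, 1.14 and 1.05 in CPM per kilobase in the libraries labelled vih1vih2 1, 2 and 3. TPS03 over TPS04 was 1.24, 1.50 and 0.691 in the same libraries, and TPS03 over CYP82G1 was 1.48, 1.71 and 0.722. TPS03 was thus the highest of these genes in the libraries labelled vih1vih2 1 and 2 and the lowest in 3. Its highest library was 1.96 times its lowest, and 14.9% of 7952 genes within 2-fold of its level had a range at least as wide. For TPS04 the highest library was 1.11 times the lowest, and 75.3% of 7955 genes of like level had a range at least as wide. For CYP82G1 these values were 1.21 times and 55.1% of 7342 genes. Ratios of genes outside the set were not computed, so a steady TPS04 over CYP82G1 is not shown to be particular to this pair.

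**Figure D2:**
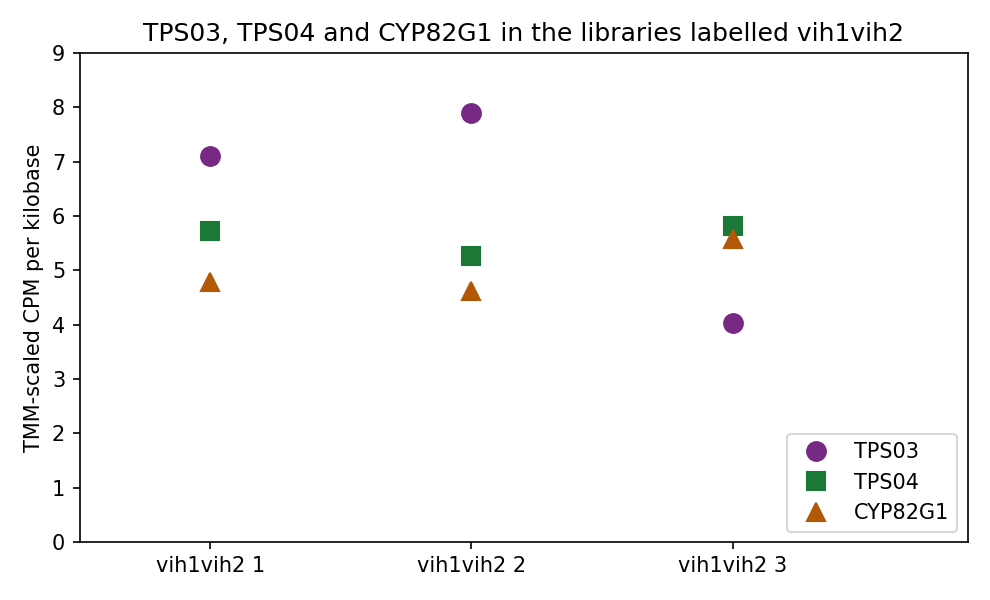
TMM-scaled CPM per kilobase of transcript of TPS03, TPS04 and CYP82G1 in the 3 libraries labelled vih1vih2. TPS04 and CYP82G1 stay between 4.61 and 5.82 in all 3, while TPS03 is at 7.11 and 7.90 in the libraries labelled vih1vih2 1 and 2 and at 4.02 in 3.

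The genes most like each member were found by Pearson's r of log2(CPM + 0.5) over the 6 libraries, among 21004 genes with at least 1 CPM in a group. The division into 2 groups of 3 libraries sets most of each r, and 1199 genes reached an r above 0.99 with TPS04, so r is a description here. JAZ6, a repressor of jasmonate signalling, was most like TPS03 (r = 0.9997), with 5863, 5650 and 4310 counts in the libraries labelled vih1vih2, against 963, 706 and 653 in those labelled Col-0. AT3G56350 (0.9995) and AT1G47540 (0.9994) followed, both lowest in the same library labelled vih1vih2 as TPS03. For TPS04 the closest were AT2G41410, the receptor-like kinase gene CRK37 and ADC2, an arginine decarboxylase of polyamine synthesis. For CYP82G1 they were AT1G66880 (r = 0.9997), CYP94B3, which inactivates jasmonoyl-isoleucine, and CYP96A11 (both 0.9997). Between members, r was 0.997 for TPS04 and CYP82G1, 0.991 for TPS03 and TPS04, and 0.985 for TPS03 and CYP82G1.

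Genes beside the members were examined for the same pattern. TPS02, which lies 1474 bases before TPS03 on the same strand and whose Col allele carries a frame shift and gives no functional enzyme, had 37, 22 and 48 counts in the libraries labelled vih1vih2, against 0, 0 and 0 in those labelled Col-0. All 3 libraries labelled vih1vih2 were above all labelled Col-0, though none reached 1 CPM. TPS02 was at least 33.0-fold higher against the floor of 3 counts (Benjamini-Hochberg adjusted p = 0.00654 by the quasi-likelihood test of edgeR), and 0 of its 1925 stretches of 50 bases were shared with another gene. On the other side of TPS03, AT4G16745, 682 bases away, was not called, at a log2 fold change of 0.02 ± 0.17. SCPL32, 16 bases from TPS04 on the opposite strand, had 8, 0 and 6 counts in the libraries labelled vih1vih2, against 14, 0 and 0 in those labelled Col-0, and was too low to be tested. CYP706A3, which oxidises the products of its neighbour TPS11, had 112, 82 and 69 counts in the libraries labelled vih1vih2, against 75, 20 and 25 in those labelled Col-0. It was not called (log2 fold change 1.09 ± 0.44, adjusted p = 0.102), but was without the library labelled Col-0 1 (1.65, adjusted p = 0.0209, the same test). MCM6, on the other side of TPS11, fell by 0.57 ± 0.16, and AT1G61670, beside TPS14, was at 0.06 ± 0.13 and not called.

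The members were then set beside the rest of their family. The 21 terpene synthases with a row, leaving out the gibberellin enzymes GA1 and GA2, summed to 34.9, 34.8 and 32.5 CPM per kilobase in the libraries labelled vih1vih2, against 55.3, 59.3 and 55.9 in those labelled Col-0. TPS03 and TPS04 together made up 36.8%, 37.8% and 30.3% of that sum in the libraries labelled vih1vih2, against 0.0242%, 0.0147% and 0% in those labelled Col-0. TPS03 and TPS04 ranked 1 and 2 of the family in the libraries labelled vih1vih2 and 18 and 19 in those labelled Col-0. The 18 family genes that are no members summed to 21.8 ± 0.589 CPM per kilobase in the libraries labelled vih1vih2 and 56.6 ± 2.24 in those labelled Col-0. In the libraries labelled Col-0 the leading genes were AT5G48110 at 14.7 ± 0.975 and TPS12, a bisabolene synthase, at 14.4 ± 0.568 CPM per kilobase.

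**Figure D3:**
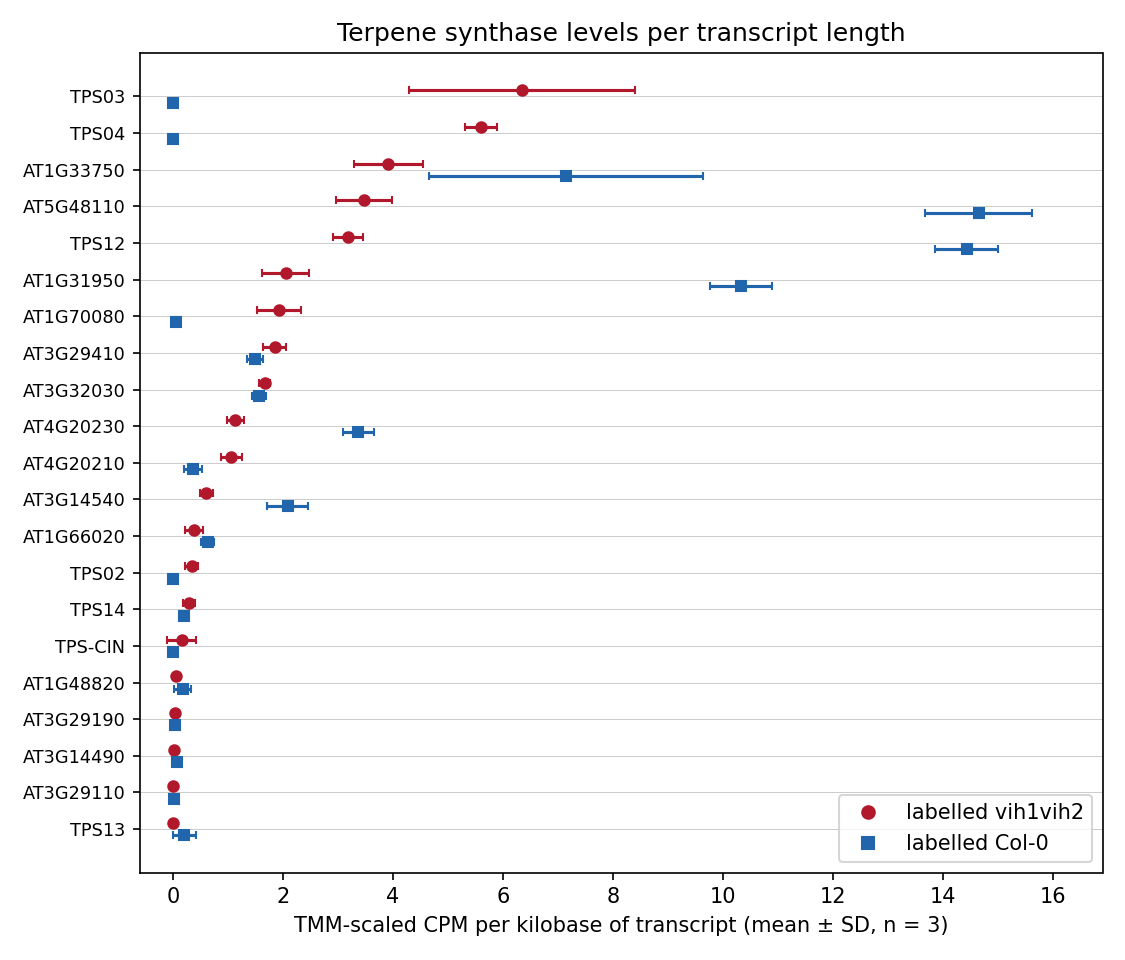
Level of each of 21 terpene synthases in TMM-scaled CPM per kilobase of transcript, mean ± SD of 3 libraries, labelled vih1vih2 (red circles) and labelled Col-0 (blue squares), in the order of the libraries labelled vih1vih2. TPS03 and TPS04 lead at 6.34 and 5.60 in the libraries labelled vih1vih2 and lie at or near 0 in those labelled Col-0, where AT5G48110, TPS12 and AT1G31950 are at 14.7, 14.4 and 10.3.

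Over all genes tested, 21.4% were called higher and 19.4% lower in the libraries labelled vih1vih2, 40.9% in all, and the median log2 fold change was −0.002. The lists below were chosen with earlier results of these data known, so their counts and medians are a description. Of 14 tested terpene synthases outside the set, GA1 and GA2 included, 3 were called higher, 6 lower and 5 not, with a median of −0.99. Those that rose were TPS02, AT1G70080 and AT4G20210. AT1G70080 had 244, 153 and 238 counts in the libraries labelled vih1vih2, against 9, 6 and 0 in those labelled Col-0 (log2 fold change 5.30 ± 0.69). AT4G20210 was at 1.52 ± 0.37, a call lost without the library labelled vih1vih2 1 or 3 or Col-0 2. TPS12 fell to 5.30 ± 0.463 CPM in the libraries labelled vih1vih2, against 24.0 ± 0.945 CPM in those labelled Col-0. AT5G48110, AT1G31950, AT3G14540 and AT4G20230 fell as well, at −2.08 ± 0.13, −2.34 ± 0.18, −1.79 ± 0.22 and −1.57 ± 0.14. GA2, the kaurene synthase of gibberellin formation, was at −1.12 ± 0.10. AT1G33750, the best counted gene not called, was at −0.87 ± 0.30, and was called without the library labelled Col-0 1 (−1.12).

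The precursors of terpenes come from the plastid MEP and the cytosolic mevalonate pathways. Of 9 tested MEP genes 1 rose, 3 fell and 5 were not called, with a median log2 fold change of −0.15. CLA1, which encodes the main deoxyxylulose phosphate synthase, fell to 235 ± 14.7 CPM in the libraries labelled vih1vih2, against 493 ± 5.70 CPM in those labelled Col-0. Its homologue DXPS1 (AT3G21500) had 3292, 3220 and 3507 counts in the libraries labelled vih1vih2, against 0, 27 and 10 in those labelled Col-0. DXPS1 was at 7.87 ± 1.11, or 7.23 without Col-0 1 and 9.16 without Col-0 2. CDPMEK and HDS fell by 0.34 and 0.28, so that 1 gene was called lower without any 1 library other than Col-0 3, and 2 without that. Of 9 mevalonate genes 4 fell and 5 were not called, with a median of −0.43. By edgeR 0 rose, and 0 did by DESeq2, by limma-voom or at an unadjusted p under 0.05, while 5 were lower by each of these. AACT1 and HMGS, both of that list, were at −0.62 ± 0.10 and −0.59 ± 0.10. ACAT2, also called AACT2, was not called, at −0.50 ± 0.43. HMG2 and MVD1 were at −0.35 ± 0.08 and −0.25 ± 0.08, calls lost without vih1vih2 3 or Col-0 2 for HMG2 and without any 1 library except Col-0 2 for MVD1. PMK rose without vih1vih2 1 (0.57).

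Prenyl diphosphate enzymes hand the substrates to the terpene synthases, and of 10 tested 3 rose, 2 fell and 5 were not called, with a median log2 fold change of −0.06. GGPS2, a geranylgeranyl diphosphate synthase of the endoplasmic reticulum, had 45, 47 and 36 counts in the libraries labelled vih1vih2, against 4, 0 and 0 in those labelled Col-0. It was at 4.83 ± 0.86, or 8.31 without Col-0 1, where the other libraries labelled Col-0 held 0 counts. GGPS6 rose by 1.05 ± 0.20, and GPS1 by 0.82 ± 0.23, a call lost without any 1 library except Col-0 3. FPS1, a farnesyl diphosphate synthase, fell by 0.70 ± 0.08 and GGPS3 by 0.87 ± 0.11.

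Among 9 tested P450s related to CYP82G1 or known to oxidise terpenes, 5 rose, 2 fell and 2 were not called, with a median log2 fold change of 0.96. CYP76C2, of a subfamily of monoterpenol oxidases, had 5107, 4383 and 4741 counts in the libraries labelled vih1vih2, against 45, 26 and 19 in those labelled Col-0 (7.22 ± 0.21). CYP76C3 and CYP76C4 had no count in the libraries labelled Col-0 and were at least 57.7-fold and 25.6-fold higher. The call of CYP76C4 was lost without vih1vih2 2 or 3. CYP705A1, which forms the other homoterpene, DMNT, in roots, rose by 0.96 ± 0.15. CYP82C2, CYP82C4 and CYP76C1 were at 0.45 ± 0.09, −0.58 ± 0.14 and −0.45 ± 0.09, and the call of CYP82C4 was lost without vih1vih2 1 or 2 or Col-0 1 or 3, leaving 1 that fell.

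Of 7 tested regulators 2 rose, 2 fell and 3 were not called, with a median log2 fold change of −0.03. MYC4, a jasmonate-responsive bHLH factor, and ORA59, an ERF factor, rose by 0.42 ± 0.07 and 0.77 ± 0.12. The DELLA repressors GAI and RGA1 fell by 0.71 ± 0.07 and 0.56 ± 0.05, and MYC3 was not called at 0.10 ± 0.05. MYC2, the best known activator of terpene synthases among them, had 0, 243 and 165 counts in the libraries labelled vih1vih2, against 0, 0 and 0 in those labelled Col-0, and did not pass the filter on low counts. Since 1 library labelled vih1vih2 was at 0 beside 243 and 165 counts, a 0 of MYC2 is not read as absence. Whether counts of MYC2 were lost was not tested.

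Of 6 enzymes of other volatiles 4 rose, 1 fell and 1 was not called, beside 21.4% higher and 19.4% lower over all genes tested. Their median log2 fold change was 3.72. The list was chosen with earlier results of these data known, so nothing is read from that count or median. LOX2, a lipoxygenase of jasmonate and leaf volatile synthesis, was at 4.58 ± 0.50, or 5.22 without Col-0 3. HPL1, a hydroperoxide lyase, and CHAT, which forms hexenyl acetate, rose by 2.86 ± 0.26 and 4.89 ± 0.50. BSMT1, which makes methyl salicylate, had no count in the libraries labelled Col-0 and was at least 58.3-fold higher. NCED4, a carotenoid cleavage enzyme also called CCD4, was at −1.10 ± 0.05.

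**Figure D4:**
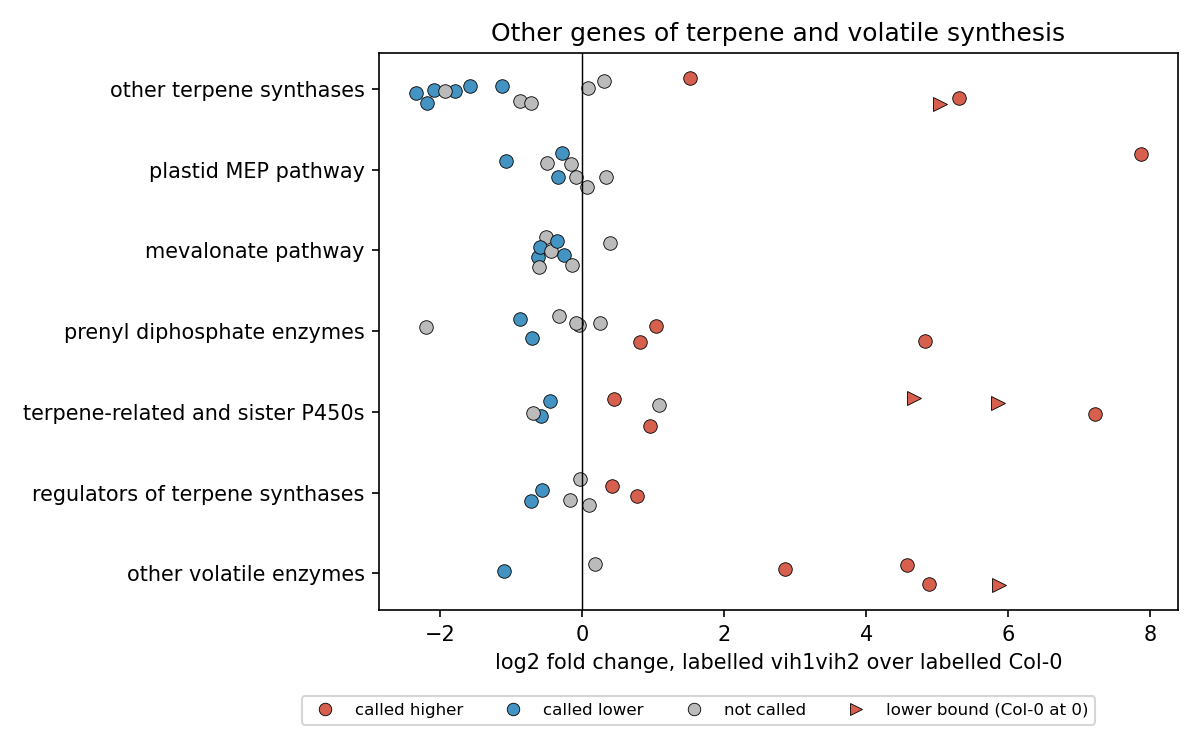
Log2 fold change, libraries labelled vih1vih2 over those labelled Col-0, of the tested genes of 7 lists, with genes called higher in red, called lower in blue and not called in grey. Triangles are bounds for genes without a count in the libraries labelled Col-0. The volatile enzymes have a median of 3.72 and the other terpene synthases a median of −0.99, in lists chosen with earlier results of these data known.

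Markers of organs differed as well. Of 5 leaf and shoot markers 1 rose, the meristem gene STM at 0.76 ± 0.14, and 3 fell, RBCS1A at −0.37 ± 0.02, LHCB1.1 at −1.54 ± 0.02 and CA1 at −1.82 ± 0.23. Their summed level was 7955 to 7998 CPM in the libraries labelled vih1vih2 and 15226 to 15864 CPM in those labelled Col-0. RBCS1A, LHCB1.1 and CA1 made up nearly all of it, so the sum follows those genes. STM was at 6.30 CPM in the libraries labelled vih1vih2 and 3.72 CPM in those labelled Col-0. GL1, not called, was at 1.35 and 1.94 CPM in the same order. Of 6 root markers 1 rose and 3 fell, CASP1 at −1.43 ± 0.07, CASP2 at −2.24 ± 0.18 and COBL9 at −0.65 ± 0.13. The sums of the root markers were 105 to 110 CPM in the libraries labelled vih1vih2 and 111 to 136 CPM in those labelled Col-0. The marker that rose was WOX5, whose call was lost without vih1vih2 2 or 3 or Col-0 1 or 3. SCR, the best counted root marker not called, was at 0.68 ± 0.33, and was called higher without Col-0 2 (0.37). Of the root sums, SCR held 50.6 ± 1.52 CPM in the libraries labelled vih1vih2 and 31.7 ± 12.9 CPM in those labelled Col-0. Flower organ markers were included because TPS11 and TPS21 are best known from flowers, and of 3 tested 1 fell and 2 were not called. The 1 that fell was SEP3, at 0.459 ± 0.0588 CPM in the libraries labelled vih1vih2 and 5.19 ± 0.353 CPM in those labelled Col-0. PI was not called, at 0.923 ± 0.339 CPM in the libraries labelled vih1vih2 and 0.931 ± 0.301 CPM in those labelled Col-0. All 7 flower markers with a row summed to 2.05 to 2.84 CPM in the libraries labelled vih1vih2 and 6.72 to 7.71 CPM in those labelled Col-0, and AP1 was at 0 in 5 of the 6 libraries. The part of organ composition in the levels of TPS03, TPS04 and CYP82G1 was not tested.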

How the data were processed

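Transcript abundance was measured by RNA sequencing in 6 libraries of whole seedlings, made with a directional kit, per the labels' protocols. The deposited table holds raw counts per locus identifier. The submitters' processing notes name CASAVA 1.4, STAR 2.5.3a, StringTie 1.3.3b and the build TAIR10; for the counting and its strand setting the sources used here give no details. Of 27080 rows, 280 with 6-digit identifiers repeated the counts of another row and were left out. Libraries of a group were no copies (chi-square per degree of freedom 108 to 133).

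Genes were filtered by filterByExpr and tested in R 4.3.3 with edgeR 4.0.16 (TMM, quasi-likelihood test, group only, 22818 genes, Benjamini-Hochberg threshold 0.05). The step was tested on simulated data. Standard errors are the absolute log2 fold change over the square root of F. They change with the prior count and can fall below counting error where a group held few counts. "Rose" and "fell" are used of called genes. A gene at 0 in a group is given as a bound against 3 counts over that group. Coordinates, lengths, neighbours, promoters and translated proteins (global alignment, Biopython 1.88) come from RefSeq TAIR10.1; the counts carry no coordinates, and 26505 of 26800 identifiers matched.

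Alternatives were DESeq2 1.42.0 (size factors, Wald test), limma-voom (limma 3.58.1), omission of each library, a block for the replicate number, no filter, a minimum of 5 CPM in 3 libraries, robust moderation, prior counts of 0.5 and 5, a threshold of 0.01 and coding length. Members and gene lists were chosen with earlier results of these data known. The rule for named genes allowed the members, VIH1 and VIH2, called list members of at least 1 CPM, the best counted member not called in each list, neighbours, and the 3 genes most like each member; not all of these are printed. ACAT2, AP1, GGPS2, CYP76C4, GGPS1, GGR, MYC2, PMK, TPS-CIN and TPS13 are exceptions to this rule, chosen after seeing their values.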

Additional observations from a re-analysis of the deposited data

How the results depend on the processing

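Relative to the values above, no member and no called gene among the 78 tested list genes changed direction under any alternative run. The fitted log2 fold change of TPS03 was 9.01 to 10.14 without 1 library, and 9.04 and 7.08 with prior counts of 0.5 and 5. That of CYP82G1 was 6.13 to 7.92 without 1 library, 7.68 by limma-voom and 5.76 with a prior count of 5. For TPS04 no fitted value is given, since it follows the prior count. The median log2 fold change of all genes was −0.008 to 0.029 under the alternatives, against −0.002 in the values above. Without 1 library, 4130 to 4377 genes were called higher and 3684 to 3775 lower, and a threshold of 0.01, stricter by construction, left 3136 and 2623. Called lower without 1 library were 1 to 2 MEP genes and 1 to 2 P450s, and 0 to 1 mevalonate genes were called higher. At a threshold of 0.01, 1 MEP gene and 2 mevalonate genes were lower, 3 P450s higher and 0 lower. The filter of 5 CPM in 3 libraries, which tests fewer genes, left 0 other terpene synthases and 3 P450s higher. DESeq2's Wald test, run without the filter on low counts, called 4 of 10 regulators higher, against 2 of 7. Without that filter edgeR called 3 of 10, and the cause was not tested. Same-numbered libraries did not deviate together (correlations of 0.031, −0.026 and −0.014), so no pairing by number was seen. Such correlations cannot show that these libraries were prepared apart. With the number as a replicate block, 1 other terpene synthase and 2 P450s were higher, and 1 MEP gene and 2 mevalonate genes lower. Depth limits TPS14, at 13 to 38 counts a library, and every fold whose libraries labelled Col-0 held few counts.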

Other observations

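Counts of some related genes differed widely between libraries of a group. GGPS1, a plastid geranylgeranyl diphosphate synthase, had 0, 1355 and 1325 counts in the libraries labelled vih1vih2, against 1514, 0 and 747 in those labelled Col-0. GGR had 2306, 88 and 39 counts in the libraries labelled vih1vih2, against 2061, 3638 and 3615 in those labelled Col-0, and was called lower without the library labelled vih1vih2 1 (log2 fold change −5.76, Benjamini-Hochberg adjusted p = 0.00696 by the quasi-likelihood test of edgeR). TPS-CIN (AT3G25830), a cineole synthase, had 69, 0 and 0 counts in the libraries labelled vih1vih2, against 0, 0 and 0 in those labelled Col-0. TPS13, a bisabolene synthase, had 0, 0 and 0 counts in the libraries labelled vih1vih2, against 22, 32 and 0 in those labelled Col-0.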
